A study of Homo sapiens with 2 samples.

Results

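Kallikrein-positive cells were examined in RWPE1, a prostate epithelial line immortalized with human papillomavirus, and in its derivative RWPE-ERG-mAKT. RWPE1 cells carried the empty vector as control. RWPE-ERG-mAKT cells carried ERG, an ETS transcription factor, and mAKT, a myristoylated and thereby constitutively active AKT. Both genes had been delivered by retrovirus, with ERG driven by the HNRNPA2B1 promoter, followed by drug selection. Over all cells, ERG was at 1.44 (RWPE1) and 20.8 (RWPE-ERG-mAKT) counts per 1e6 unique molecular identifiers (CPM). AKT1 was at 22.0 and 19.1 CPM and so was not higher in the line labelled mAKT. Whether RNA of the introduced AKT is counted under AKT1 was not tested. Each line was measured in 1 single-cell library loaded with 10000 cells, so differences between the lines have no replicate check and no test was made.

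The members were selected on 4 measured genes. A cell was a member when at least 1 unique molecular identifier (UMI, 1 counted RNA molecule) was present for 2 or more of KLK5, KLK8, KLK10 and CXCL17. To keep cornifying cells out, members could hold at most 2 UMIs summed over SPRR1A, SPRR1B, SPRR2A, SPRR2D, SPRR3 and IVL, which encode proteins of the cornified envelope. Of 24107 cells with over 2500 detected genes and under 7.5% mitochondrial UMIs, 720 were members, 671 of 9967 in RWPE1 and 49 of 14140 in RWPE-ERG-mAKT. They were compared with the 7569 and 13614 cells of the same libraries that had no UMI of the 4 genes.

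Kallikreins are secreted serine proteases encoded side by side on chromosome 19. KLK3, prostate-specific antigen, is the best known in the prostate, whereas KLK5, KLK7 and KLK8 act in stratified epithelium, where they cut the desmosomal contacts between shedding cells and are held in check by inhibitors such as SPINK5. CXCL17 is a chemokine of mucosal surfaces. In prostate and airway, hillock cells are a stratified epithelial population marked by KRT13 and KRT4, and club cells are secretory cells with progenitor features.

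The 250 bases before the transcript starts of KLK5, KLK10 and KLK7 are shown because these neighbouring genes were detected in the same cells and KLK7 was not read by the rule. They were taken from RefSeq (GRCh38.p14, minus strand) at chr19:50953039-50953288, chr19:51019862-51020111 and chr19:50984065-50984314, using the farthest upstream start where a gene had several. Of 8 genes looked up, 7 had an entry, and KLK8 had none. Capitals mark matches on either strand to GGAAGT, which is 1 form of the ETS site, the AP-1 site TGANTCA, the GRHL site AACCNGTT or TATAAA. Other forms of the ETS site were not searched and are not marked.
KLK5: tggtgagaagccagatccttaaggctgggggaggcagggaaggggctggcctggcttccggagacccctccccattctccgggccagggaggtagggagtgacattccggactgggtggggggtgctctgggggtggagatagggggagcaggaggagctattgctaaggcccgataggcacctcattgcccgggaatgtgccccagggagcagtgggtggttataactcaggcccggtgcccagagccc
KLK10: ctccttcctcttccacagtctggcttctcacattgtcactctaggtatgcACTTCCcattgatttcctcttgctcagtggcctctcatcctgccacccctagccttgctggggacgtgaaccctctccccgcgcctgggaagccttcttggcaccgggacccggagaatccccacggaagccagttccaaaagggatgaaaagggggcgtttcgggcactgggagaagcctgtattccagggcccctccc
KLK7: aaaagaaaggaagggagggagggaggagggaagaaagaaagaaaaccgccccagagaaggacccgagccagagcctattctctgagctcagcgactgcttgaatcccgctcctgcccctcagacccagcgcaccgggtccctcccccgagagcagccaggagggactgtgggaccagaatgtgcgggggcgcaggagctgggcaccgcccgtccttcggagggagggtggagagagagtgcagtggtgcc
The single match was ACTTCC, which is GGAAGT on the other strand, 200 to 195 bases before the KLK10 start. Of all 35116 RefSeq windows of this length, 19.5% held GGAAGT, 6.57% the AP-1 site, 1.49% the GRHL site and 10.7% TATAAA. A match is a description of letters and not a binding site.

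The deposited matrices held 12504 barcodes and 217340524 UMIs for RWPE1, and 17355 barcodes and 237490385 UMIs for RWPE-ERG-mAKT, so both had more barcodes than cells loaded. Members had a median of 19140 UMIs (RWPE1) and 16854 UMIs (RWPE-ERG-mAKT), and cells with none of the 4 genes 16531 and 13464. No doublet caller was run here. The libraries shared 55 barcodes, of which 1 was a member (RWPE1). In RWPE1, 53 barcodes carried RNA of microglia or choroid plexus, and none was a member. The study's methods state an upper limit of 2500 genes per cell, which is the opposite side of the limit used here. Within 200 to 2500 genes and under 7.5% mitochondrial UMIs there were 362 and 2775 barcodes, and 8 and 4 of them met the rule.

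Kallikrein-positive cells made up 6.73% of RWPE1 cells (95% exact binomial interval 6.25 to 7.24) and 0.347% of RWPE-ERG-mAKT cells (0.256 to 0.458). The share was therefore 19.4-fold higher in RWPE1 (95% interval 14.5 to 26.5). All intervals here cover counting error only and not differences between cultures. Intervals of levels from summed UMIs also leave out differences between cells. They are too narrow where 1 cell gives many of the UMIs. In RWPE1 the share was 4.26%, 5.86%, 6.78% and 10.0% in 4 classes of equal size from the shallowest to the deepest cells. In RWPE-ERG-mAKT it was 0.255%, 0.226%, 0.537% and 0.368%, with no steady rise. With every cell thinned at random to 8000 UMIs, 3.32% of 9813 RWPE1 cells and 0.229% of 12662 RWPE-ERG-mAKT cells met the rule, a 14.5-fold difference (9.91 to 22.0), with 154 and 1478 shallower cells left out. At 5000 and 12000 UMIs the difference was 11.2-fold and 15.9-fold, so the gap was present at each depth tried.

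**Figure D1:**
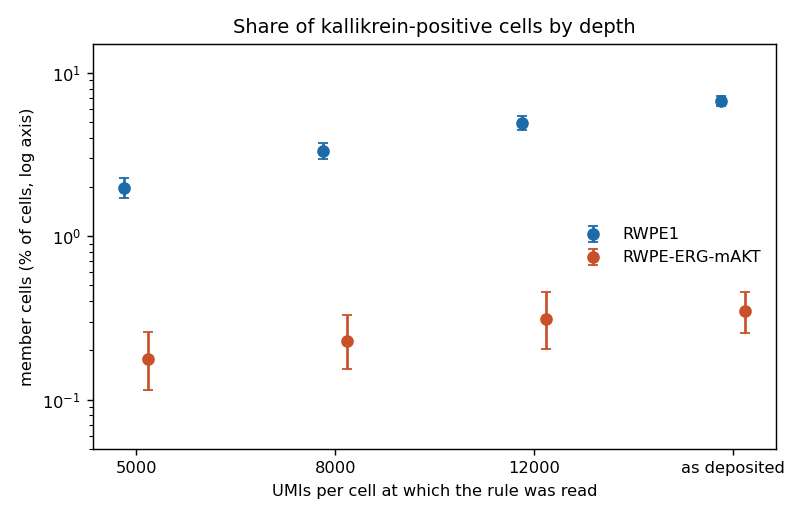
Share of cells that met the rule (percent, log axis) in RWPE1 (blue) and RWPE-ERG-mAKT (orange) with every cell thinned to 5000, 8000 or 12000 UMIs and as deposited. Bars are 95% exact binomial intervals, and RWPE1 lies above RWPE-ERG-mAKT at every depth, 6.73% against 0.347% as deposited.

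The members were kallikrein cells far more than CXCL17 cells. In RWPE1, 657 of 671 members had 2 or more of the 3 kallikreins, and in RWPE-ERG-mAKT all 49 did. CXCL17 (ENSG00000189377) was found in 22 RWPE1 members (3.28%, interval 2.07 to 4.92) and in 1 RWPE-ERG-mAKT member (2.04%, interval 0.0517 to 10.9). Most CXCL17-positive cells lacked the kallikreins, 75 of 106 in RWPE1 and 71 of 73 in RWPE-ERG-mAKT. Most cells of either library also lacked them. As a reference, 23.3% of all RWPE1 cells had a UMI of the 3 kallikreins. In RWPE-ERG-mAKT, 96.3% of all cells had none of the 4 genes. The counts therefore do not show that CXCL17-positive cells lacked kallikreins more often than other cells.

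In RWPE1 members, KLK5 (ENSG00000167754) was found in 478, KLK8 (ENSG00000129455) in 558 and KLK10 (ENSG00000129451) in 479, at 91.7, 74.4 and 68.7 CPM. All 3 kallikreins were present together in 187 members. In RWPE-ERG-mAKT members, KLK10 was found in 48 of 49 at 174 CPM, KLK5 in 27 at 93.5 CPM and KLK8 in 24 at 63.5 CPM. There the members divided into 25 with KLK5 and KLK10 and 22 with KLK8 and KLK10, and over all cells of that library KLK5 and KLK8 met in 7 cells, against 48 for KLK5 with KLK10 and 41 for KLK8 with KLK10. In RWPE1 the same 3 pairs met in 446, 375 and 449 cells, with KLK8 in 53.7% of KLK5 cells against 13.6% of cells without KLK5. These values chose the members and are given as a description.

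The limits of the rule ran through a continuous range. A further 1621 RWPE1 cells and 442 RWPE-ERG-mAKT cells had exactly 1 of the 4 genes. Among members, 143 and 9 had only 2 UMIs of the 4 genes, the median was 4.0 in both libraries, and the highest values were 29 and 27. At the envelope limit, 23 RWPE1 members had 2 envelope UMIs and 12 cells with 3 fell outside, with 4 and 4 in RWPE-ERG-mAKT. In all, 106 and 35 cells were set aside by that limit, with a median of 13.0 and 8.0 envelope UMIs.

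To read the 4 genes in counts that the assignment had not used, the UMIs of each cell were split at random into 2 parts, and cells were assigned on one and measured on the other. In RWPE1, 357 cells were assigned, and in the unread part KLK5 stood at 113 CPM against 2.21 CPM in cells assigned none of the genes, a 51.0-fold difference (42.8 to 61.1). KLK10 was 33.6-fold (27.8 to 40.8) and KLK8 8.01-fold higher (6.89 to 9.30), while CXCL17 reached 1.74 against 0.508 CPM on 7 UMIs (3.42-fold, 1.29 to 7.72; with a second random split 2.65-fold, 0.922 to 6.27). Detection of 2 or more genes recurred in 49.0% of the assigned cells and in 0.815% of the others. In RWPE-ERG-mAKT, 31 cells were assigned and KLK5 was 170-fold (108 to 262), KLK8 111-fold (54.9 to 208) and KLK10 291-fold (202 to 416) higher in the unread part, with CXCL17 at 0 UMIs. With the second split, which assigned 20 cells, KLK8 was 246-fold higher (137 to 428). Kallikrein levels were thus higher in the assigned cells of both libraries, but members did not hold all of this RNA. In RWPE1, members held 56.8% of KLK5, 35.1% of KLK8 and 60.9% of KLK10 UMIs. In RWPE-ERG-mAKT they held 20.5%, 26.4% and 22.6%, with the rest in other cells.

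As a gauge of free RNA, the 3 kallikreins were summed in the 53 brain-type barcodes of RWPE1, which had 2 or more UMIs over 6 marker genes. They reached 38.2 CPM (15.3 to 78.6, 7 UMIs), against 235 CPM in members and 38.0 CPM over all RWPE1 cells. Of the 7 UMIs, 6 came from 6 barcodes with over 2500 genes and a median of 18913 UMIs, as deep as RWPE1 cells. These 6 held 152498 of the 183454 UMIs, so the 38.2 CPM cannot be read as a level of free RNA. The 47 barcodes with at most 2500 genes held 1 kallikrein UMI (32.3 CPM, 0.818 to 180). Of all 53 barcodes, 5 had a kallikrein UMI (9.43%, median depth 617 UMIs), against 23.3% of RWPE1 cells at a median of 16972 UMIs. Only 1 of the 47 with at most 2500 genes had one, against 4 of 6 deeper ones. KLK8 is itself made in brain, and the source of these 7 UMIs was not tested.

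Other kallikreins of the cluster, none of them read by the rule, were higher in the members, and the libraries differed in which. All lie on the minus strand of chromosome 19 (GRCh38, GENCODE 29) without overlapping, in the order KLK5, KLK6, KLK7, KLK8, KLK9, KLK10, KLK11 from 50943303 to 51028039. In RWPE1, KLK9 stood at 14.8 CPM in members and 0.593 CPM in cells with none, 25.1-fold higher (19.4 to 32.7), and was found in 164 members. KLK11 was at 4.11 against 0.142 CPM (28.9-fold, 17.2 to 50.6), KLK7 at 3.31 against 0.483 CPM (6.86-fold, 4.67 to 10.0) and KLK6 at 1.46 against 0.0994 CPM (14.7-fold, 7.18 to 31.0). KLK9 and KLK11, which flank KLK10, thus led in RWPE1.

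In RWPE-ERG-mAKT members, KLK7, the chymotrypsin-like kallikrein of shedding epithelium, was at 171 CPM against 0.349 CPM (490-fold, 369 to 656), and KLK6 at 72.7 against 0.149 CPM (489-fold, 315 to 774). KLK7 came from 20 members and KLK6 from 15, with 1 cell giving 38.1% of the KLK6 UMIs. KLK9 was at 4.62 against 0.112 CPM on 4 UMIs, and KLK11 had none, which allows up to 3.46 CPM when 3 counts are taken as the limit of a count of 0. Thus KLK6 and KLK7, which lie between KLK5 and KLK8, led in RWPE-ERG-mAKT, the reverse of the order in RWPE1. Whether the libraries differ in this was not tested.

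The prostate kallikreins KLK2, KLK3 and KLK4 had 0 UMIs in members of both libraries. KLK1, KLK12, KLK13, KLK14 and KLK15 had at most 5 UMIs in the members of either library.

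**Figure D2:**
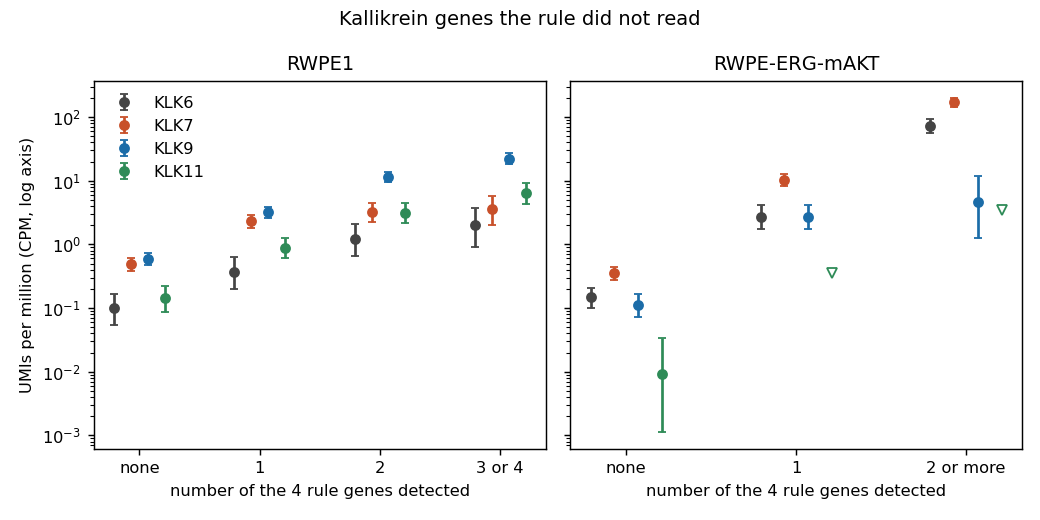
Level (CPM, log axis) of KLK6, KLK7, KLK9 and KLK11 in cells grouped by how many of the 4 rule genes were detected; the 2-or-more classes hold members only. Bars are 95% Poisson intervals and open triangles mark the level of 3 counts for genes with 0 UMIs. KLK9 rises to 22.3 CPM with 3 or 4 genes in RWPE1, whereas KLK7 and KLK6 lead in RWPE-ERG-mAKT at 171 and 72.7 CPM.

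Levels differed stepwise with the number of rule genes in RWPE1. KLK9 was at 0.593, 3.19, 11.6 and 22.3 CPM in cells with none, 1, 2, and 3 or 4 of the genes. CXCL14, a chemokine of normal epithelium chosen here after its values were seen, followed at 1.36, 13.6, 80.8 and 167 CPM. VIM, the intermediate filament of mesenchymal cells, ran the other way at 308, 148, 99.6 and 75.3 CPM.

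Across the transcriptome, a gene was counted as higher or lower when its level differed by 1.5-fold or more between members and cells with none, with 1 CPM added to both, among genes with at least 10 CPM in either group. In RWPE1, 210 of 9295 genes were higher (2.26%) and 250 lower (2.69%). In RWPE-ERG-mAKT, 863 of 9165 were higher (9.42%) and 1003 lower (10.9%), on 49 cells and 866053 UMIs and so with much wider counting error. Of 8418 genes measured in both, 49 were higher in both libraries (0.582%) and 62 lower in both (0.737%).

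The 15 named genes with the highest ratios in members of both libraries included 3 keratins and 2 epithelial transcription factors, beside genes of varied function. AQP3, a water and glycerol channel of basal and hillock epithelium, was at 28.7 against 3.59 CPM in RWPE1 (8.0-fold, 7.02 to 9.12) and at 229 against 10.2 CPM in RWPE-ERG-mAKT (22.3-fold, 19.2 to 25.8). KRT16, a keratin of activated stratified epithelium, was at 195 against 32.1 CPM (6.06-fold, 5.79 to 6.35) and at 738 against 79.0 CPM (9.34-fold, 8.62 to 10.1). KRT6A, its usual partner, was 2.52-fold and 1.79-fold higher, and the basal keratin KRT15 1.89-fold and 12.6-fold. All 4 genes were thus higher in each library, with AQP3 and KRT15 differing most in size.

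The epithelial ETS factors EHF and ELF3 were also higher. EHF was at 20.8 against 6.39 CPM in RWPE1 (3.26-fold, 2.85 to 3.71) and at 31.2 against 5.63 CPM in RWPE-ERG-mAKT (5.53-fold, 3.63 to 8.09). ELF3 was 1.88-fold (1.68 to 2.09) and 9.91-fold higher (7.98 to 12.2). CALML3, an epithelial calmodulin-like protein, was 8.27-fold and 2.78-fold higher, and S100A9, a calprotectin subunit, 4.89-fold and 3.93-fold.

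Of the remaining named genes, the aldehyde dehydrogenase ALDH3A1 was 4.58-fold and 4.56-fold higher, although 1 cell gave 52.2% of its UMIs in RWPE-ERG-mAKT members. FXYD3, a regulator of the sodium pump, was 2.21-fold and 3.83-fold higher and was found in 658 of 671 and 49 of 49 members. DENND2C, the antiviral helicase DDX60, the desmosomal cadherin DSG3, TMEM117 and the bone morphogenetic protein target ID1 ranged from 1.68-fold to 2.72-fold.

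The 15 named genes with the lowest ratios in members of both libraries included extracellular matrix and cytoskeletal genes beside enzymes, a transporter and RNAs of other function. FBN2, a microfibril protein, was at 22.4 against 83.4 CPM in RWPE1 (3.72-fold lower, 3.34 to 4.16) and at 12.7 against 67.7 CPM in RWPE-ERG-mAKT (5.33-fold lower, 2.98 to 10.7). VIM was at 92.3 against 308 CPM (3.34-fold lower, 3.16 to 3.52) and at 70.4 against 276 CPM (3.92-fold lower, 3.05 to 5.13). The RNA-binding protein RBMS3 was 3.36-fold and 3.77-fold lower, and thrombospondin THBS1 2.84-fold and 2.23-fold. These 4 genes were lower in the members of each line.

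The atypical cadherin CDH13 was 2.17-fold and 2.15-fold lower, the methyltransferase NNMT 2.89-fold and 2.11-fold, and the TGF-beta receptor TGFBR2 1.79-fold and 2.03-fold. MIR100HG, SLC26A2, SAMD4A, KLHL29, PTPRG, AL035446.2, FADS1 and CENPV were between 1.81-fold and 2.40-fold lower. Under the alternative settings, 435 of 435 values of the 15 genes higher in both libraries and 435 of 435 of the 15 lower genes kept their direction. The genes were picked for extreme ratios in these data and the settings re-read the same libraries. Their kept direction was thus largely set by the choice and is no independent check.

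**Figure D3:**
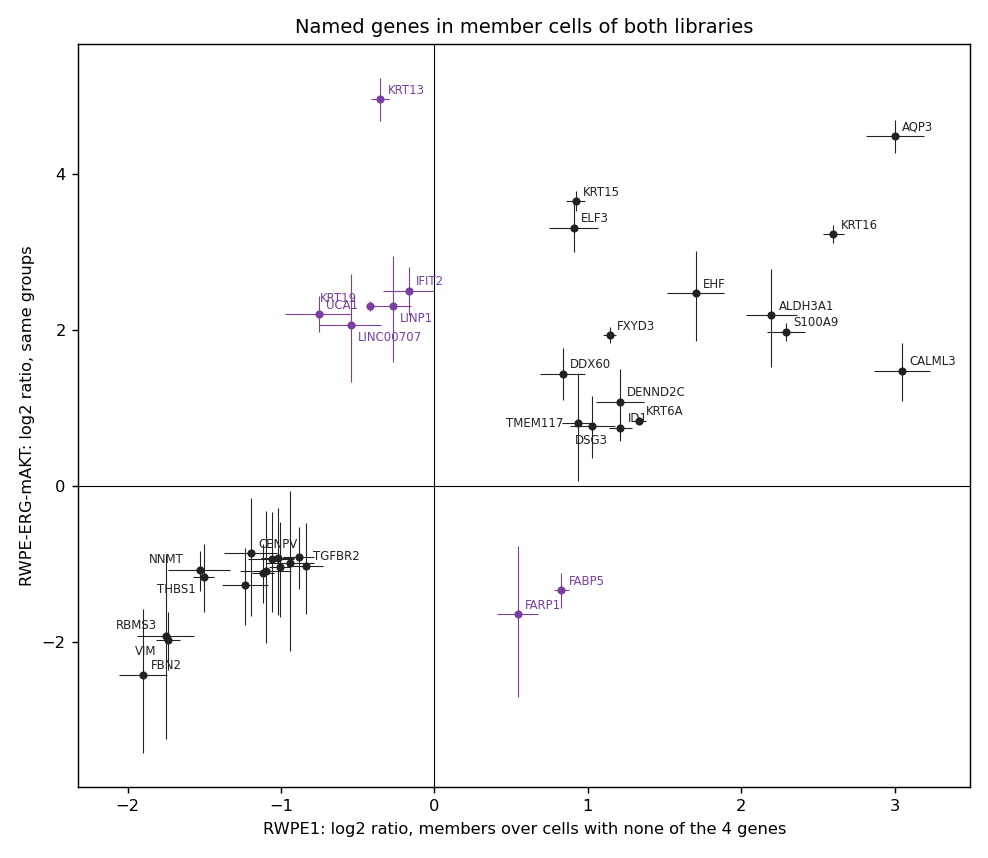
Log2 ratio of members over cells with none of the 4 genes in RWPE1 (x axis) and RWPE-ERG-mAKT (y axis) for the genes named by rule, with 95% counting intervals as bars. Black points are the 15 highest and 15 lowest genes in both libraries, and purple points are the 8 genes on opposite sides, with KRT13 and FABP5 at the extremes.

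Other genes stood on opposite sides of 1 in the 2 lines. KRT13, the defining keratin of hillock cells, was at 159 against 203 CPM in RWPE1 members and at 140 against 4.50 CPM in RWPE-ERG-mAKT members (31.0-fold higher, 25.5 to 37.5). KRT19, a luminal keratin, was at 691 against 924 CPM and at 2335 against 471 CPM. Summed over all members, KRT13 and KRT19 were thus lower in the control and higher in RWPE-ERG-mAKT. The members were not uniform in this, with values given further down. RWPE1 members with KLK8 without KLK5 had KRT13 above the level of cells with none. KRT19 in RWPE-ERG-mAKT was highest in members with KLK8 without KLK5.

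The long non-coding RNAs UCA1, LINC00707 and LINP1 were 1.69-fold, 1.46-fold and 1.21-fold lower in RWPE1 members and 4.61-fold, 4.19-fold and 4.96-fold higher in RWPE-ERG-mAKT members. IFIT2, an interferon-induced gene, was 1.12-fold lower and 5.67-fold higher, with 32.9% of its UMIs in RWPE1 members from 1 cell. FABP5, a fatty acid carrier, was 1.77-fold higher and 2.52-fold lower, and FARP1 1.46-fold higher and 3.12-fold lower.

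In RWPE1, the highest ratio among the measured genes was that of CXCL14, at 107 against 1.36 CPM (78.1-fold, 67.2 to 91.2). It was found in 234 of 671 members (34.9%) and in 1.49% of cells with none, and in 23.2% and 0.739% after thinning to 8000 UMIs. None of the 49 RWPE-ERG-mAKT members had a CXCL14 UMI, which by the same limit of 3 counts allows up to 6.12% of cells with a UMI at this depth and says nothing of cells expressing the gene below it. LY6D, a surface marker of stratified epithelium, was at 101 against 11.3 CPM (8.91-fold, 8.30 to 9.56), the small heat shock protein HSPB1 at 986 against 290 CPM and RIMS2 at 53.7 against 12.2 CPM. CXCL14, HSPB1 and RIMS2 were named after their values were seen.

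ERG, the gene introduced into the other line, was also higher in RWPE1 members than in other RWPE1 cells. It was at 5.57 against 0.824 CPM (6.76-fold, 5.04 to 9.03), in 64 of 671 members (9.54%) and 105 of 7569 cells with none (1.39%), and in 4.20% and 0.645% of cells after thinning. In RWPE-ERG-mAKT the order was not seen, with 17.3 against 20.8 CPM (0.833-fold, 0.466 to 1.38) and 46.7% of the members' ERG UMIs from 1 cell. AKT1 was at 19.8 against 22.4 CPM in RWPE1, and 19.6 against 19.2 CPM in RWPE-ERG-mAKT. Counts of a gene cannot tell introduced from native transcripts.

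The fixed gene lists are given as counts of measured genes, medians of log2 ratios with 1 CPM added, and no test. Over all genes measured, RWPE1 had a median of -0.02 and RWPE-ERG-mAKT one of -0.03. Hillock genes were higher in both lines, with 5 of 6 measured genes at 1.5-fold or more in RWPE1 (median 2.0) and 4 of 5 in RWPE-ERG-mAKT (median 1.97, and 3.42 without the deepest 5% of cells). The genes were partly different. In RWPE1 they were AQP3, LY6D, S100A8, S100A9 and KRT4, without KRT13, and in RWPE-ERG-mAKT they were KRT13, AQP3, S100A9 and ECM1, while LY6D was at 4.62 against 1.62 CPM on 4 UMIs.

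Luminal progenitor and club genes were higher mainly in RWPE-ERG-mAKT, with 7 of 10 at 1.5-fold or more (median 2.03), against 2 of 9 higher and 1 lower in RWPE1 (median 0.35). LCN2, an iron-binding defence protein, was at 87.8 against 4.40 CPM in RWPE-ERG-mAKT members (19.96-fold, 15.6 to 25.2) and at 11.3 against 2.24 CPM in RWPE1 (5.05-fold, 4.17 to 6.10). CLDN4, a tight junction protein, was 6.56-fold higher in RWPE-ERG-mAKT and 1.01-fold in RWPE1, and PSCA 10.6-fold and 3.02-fold, with 52.9% of the PSCA UMIs of RWPE-ERG-mAKT members from 1 cell.

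The secretory and club markers PIGR and SCGB3A1 had 0 UMIs in members of both libraries. LTF, SCGB1A1, PROM1 and TCN2 had at most 1 UMI. The progenitor-like label therefore rests on a part of its markers, chiefly in RWPE-ERG-mAKT. Nor was the list higher in members alone. In cells set aside by the envelope limit, 6 of 9 genes were higher and 1 lower in RWPE1 (median 2.36). In those of RWPE-ERG-mAKT, 8 of 10 were higher (median 2.37).

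Kallikrein inhibitors, partners and substrates showed the same split among members. In RWPE-ERG-mAKT, 8 of 10 measured genes were at 1.5-fold or more (median 1.5), and in RWPE1 0 of 7 (median -0.02). The split was not seen in cells set aside by the envelope limit. There, 5 of 7 were higher and 1 lower in RWPE1 (median 1.17). In RWPE-ERG-mAKT, 8 of 10 were higher and 1 lower in such cells (median 2.24). The values that follow are those of members. SLPI, a secreted protease inhibitor, was at 5808 against 1160 CPM in RWPE-ERG-mAKT (5.01-fold, 4.87 to 5.15) and at 58.6 against 41.1 CPM in RWPE1 (1.43-fold, 1.33 to 1.53). PI3, the elastase inhibitor elafin, was 6.46-fold higher (5.32 to 7.78) and 0.989-fold (0.891 to 1.10). SPINK5, the inhibitor of KLK5 and KLK7, was at 23.1 against 5.62 CPM and at 2.19 against 1.31 CPM, and A2ML1 at 31.2 against 1.56 CPM and at 1.92 against 0.525 CPM. Of the membrane proteases, ST14 (matriptase) was at 35.8 against 15.8 CPM in RWPE-ERG-mAKT and at 32.0 against 26.7 CPM in RWPE1.

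Squamous differentiation genes were higher in 5 of 11 in RWPE1 (median 0.31) and in 9 of 14 in RWPE-ERG-mAKT, where 2 were lower (median 0.84). The RWPE1 median turned to -0.050 among genes with at least 50 CPM. The envelope limit that members had to meet was not set on the comparison cells, of which 0.277% and 6.18% were over it. With such cells left out the medians were 0.31 and 0.89. The late genes KRT1, DSG1, SBSN and KRTDAP were at most at 3.46 CPM in members, from which the rule had removed cells with envelope RNA. Cells set aside by the envelope limit had higher levels still, with S100A9 at 4516 CPM and SPINK5 at 480 CPM in RWPE1, and at 3226 and 56.2 CPM in RWPE-ERG-mAKT. The hillock median of those cells was 5.90 and 4.10.

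Basal and luminal lists lay on opposite sides of 0 in the members of the lines. In RWPE1, 5 of 15 basal genes were higher and 0 lower (median 0.36), and 3 of 9 luminal genes were lower and 0 higher (median -0.40). KRT14 was at 4138 against 1229 CPM (3.37-fold, 3.34 to 3.40), KRT5 1.69-fold and TP63 1.82-fold higher, whereas KRT8 and KRT18 were 1.87-fold and 1.67-fold lower. In RWPE-ERG-mAKT, 2 basal genes were higher, KRT14 and KRT15, and 6 of 15 were lower (median -0.47), among them the hemidesmosome linker DST at 93.5 against 348 CPM. Of luminal genes there, 4 of 9 were higher (median 0.43). The split was not seen in cells set aside by the envelope limit. In those of RWPE1, 2 of 15 basal genes were higher and 5 lower (median -0.29). Of luminal genes there, 3 of 9 were higher and 3 lower (median 0.19). In those of RWPE-ERG-mAKT the basal and luminal medians were -0.29 and 0.66.

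Mesenchymal genes were lower in 4 of 8 in RWPE1 (median -0.62) and in 6 of 8 in RWPE-ERG-mAKT, where S100A4 was higher (median -0.86). Fibronectin, FN1, was at 12.5 against 62.0 CPM in RWPE1 (4.98-fold lower, 4.31 to 5.78) and at 11.5 against 19.2 CPM in RWPE-ERG-mAKT (1.66-fold lower, 0.903 to 3.47).

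Genes of G2/M phase, which serve chromosome segregation and mitosis, were lower in 19 of 22 in RWPE-ERG-mAKT members (median -0.93), and 0 of 22 passed 1.5-fold in RWPE1 (median 0.29). BUB1B, a spindle checkpoint kinase, was at 16.2 against 49.2 CPM in RWPE-ERG-mAKT (3.04-fold lower, 1.81 to 5.56) and at 53.4 against 50.8 CPM in RWPE1. PLK1, a mitotic kinase, was 2.05-fold lower (1.36 to 3.23) and 1.46-fold higher (1.37 to 1.56). In cells set aside by the envelope limit, 22 of 22 G2/M genes were lower in RWPE-ERG-mAKT (median -1.20) and 5 of 22 in RWPE1 (median -0.46). S phase genes were lower in 1 of 21 in RWPE-ERG-mAKT members and in 0 of 21 in RWPE1 members.

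Interferon response genes were higher in 14 of 21 in RWPE-ERG-mAKT (median 0.69) and in 4 of 17 in RWPE1 (median 0.35), with 0 lower in both. OAS1, an antiviral sensor, was at 35.8 against 8.40 CPM and at 6.23 against 2.24 CPM. In RWPE-ERG-mAKT members 1 cell gave 49.1% of ISG15 UMIs and 46.6% of OASL UMIs. The order of the lines was the other way in cells set aside by the envelope limit. There, 10 of 17 interferon genes were higher in RWPE1 (median 0.75). In RWPE-ERG-mAKT, 8 of 21 were higher and 4 lower in such cells (median 0.36).

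Of the remaining lists, NF-kB and innate defence genes were higher in 3 of 11 in RWPE1 and 8 of 18 in RWPE-ERG-mAKT (medians -0.02 and 0.35), and stemness genes in 0 of 7 and 3 of 7 (-0.03 and 0.43). Medians in RWPE1 and RWPE-ERG-mAKT were -0.01 and -0.24 for hypoxia and glycolysis, -0.07 and -0.08 for ERK output, 0.07 and 0.08 for FOXO targets, and 0.05 and -0.10 for Notch. They were -0.12 and -0.05 for mTORC1 and SREBP targets, -0.19 and -0.05 for ATF4 targets, 0.13 and 0.22 for immediate early genes, 0.07 and 0.15 for mitochondrially encoded genes and 0.04 and 0.10 for long nuclear RNA.

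Markers of other cell types were low in the members. Of 8 fibroblast markers, 5 were at 0 in members of each line, and the summed level was 40.6 CPM in RWPE1 members against 58.8 CPM in cells with none, and 46.2 against 57.5 CPM in RWPE-ERG-mAKT, mostly FBLN1. Immune markers summed to 12.9 against 9.17 CPM and 23.1 against 13.9 CPM, mostly CD68, and CD3E and AIF1 were at 0. Endothelial markers summed to 0.795 against 1.29 CPM and 9.24 against 1.32 CPM, the latter from EMCN in 1 cell. Neuroendocrine markers summed to 4.64 against 4.98 CPM and 8.08 against 6.80 CPM, and microglia and choroid plexus markers to 0.331 against 0.192 CPM and 0 against 0.0883 CPM.

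**Figure D4:**
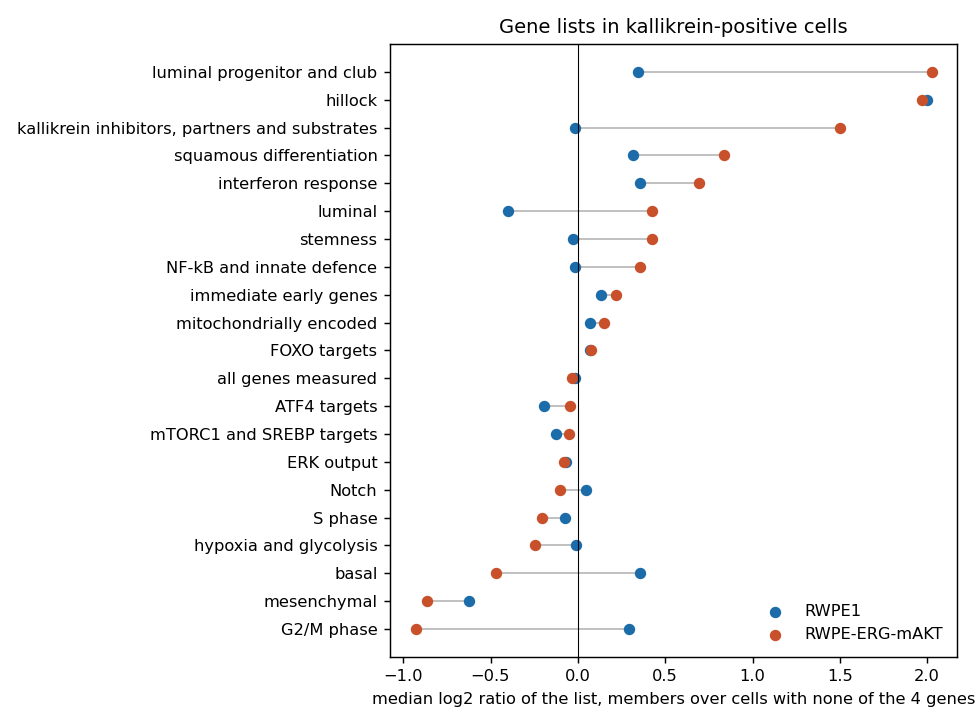
Median log2 ratio of members over cells with none of the 4 genes (x axis) for each fixed list with 5 or more measured genes in both libraries, RWPE1 in blue and RWPE-ERG-mAKT in orange. Hillock medians are 2.0 and 1.97 as plotted but move to 1.70 and 3.42 without the deepest 5% of cells, and G2/M phase (0.29 and -0.93) and the kallikrein inhibitor list (-0.02 and 1.5) lie apart.

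The members differed among themselves by kallikrein. In RWPE-ERG-mAKT, the 25 members with KLK5 without KLK8 had S100A9 at 1586 CPM, KRT16 at 1296 CPM and KRT14 at 6250 CPM, whereas the 22 with KLK8 without KLK5 had them at 22.6, 256 and 973 CPM. The KLK8 cells had KRT19 at 3922 CPM against 601 CPM and PSCA at 294 against 10.2 CPM, the PSCA value resting largely on the 1 cell noted above. KLK7 was at 173 and 181 CPM and SLPI at 6647 and 5192 CPM, so both kinds shared these. Basal genes had a median of -0.04 in the KLK5 cells and -0.95 in the KLK8 cells.

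In RWPE1 the same division gave 110 and 190 members. KRT16 was at 191 and 196 CPM and KRT14 at 4471 and 3518 CPM. CALML3 was at 54.3 CPM in the KLK5 cells and 15.6 CPM in the KLK8 cells, KLK7 at 0.427 and 5.12 CPM, and KRT13 at 90.1 and 230 CPM. Thus KRT16 was near equal in both kinds there, whereas KLK7 and CALML3 were not. CXCL17-positive cells without a kallikrein had list medians against cells with none of 0.07 (RWPE1) and -0.19 (RWPE-ERG-mAKT) for hillock genes and 0.13 and -0.36 for G2/M genes. VIM was at 334 and 202 CPM in them, against 308 and 276 CPM in cells with none, and CALML3 at 5.48 and 9.53 CPM against 3.73 and 26.1 CPM.

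Levels were also summarised by position, over 106 windows of 25 Mb with at least 25 genes in each library, a view chosen after earlier values were seen. In RWPE1 members the window medians ranged from -0.17 to 0.16 on the log2 scale, and chromosome 3 held both ends. The lowest was the 50 to 75 Mb window and the highest the 175 to 200 Mb window, and the 4 windows from 100 Mb on ranked 103 to 106 of 106. Other chromosomes had windows nearly as low. Chromosome 9 from 125 to 150 Mb was at -0.164 (rank 2 from the lowest). Chromosome 4 from 0 to 25 Mb was at -0.150 (rank 4) and chromosome 22 from 25 to 50 Mb at -0.135 (rank 5). In the first 75 Mb of chromosome 3, 113 of 132 genes were below 0 (median -0.15), among them RBMS3, TGFBR2 and PTPRG. Beyond 125 Mb, 139 of 167 were above 0 (median 0.16), among them TP63. All genes measured in RWPE1 had a median of -0.02, and their shares on each side of 0 are not given here.

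The medians of both stretches were also taken in other groups. In RWPE1 cells with 1 of the 4 genes they were -0.12 and 0.04, the latter within the 10th to 90th percentile of the members' windows (-0.084 to 0.044), and in cells over the envelope limit -0.18 and 0.24. In KLK5 members without KLK8 they were -0.13 and 0.31. The 75 CXCL17-positive cells without a kallikrein had medians of 0.01 and 0.02. RWPE-ERG-mAKT members had -0.10, with 111 of 176 genes below 0, and -0.09, where all windows had a median of -0.06. Differences between these groups, and the source of the pattern, were not tested.

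**Figure D5:**
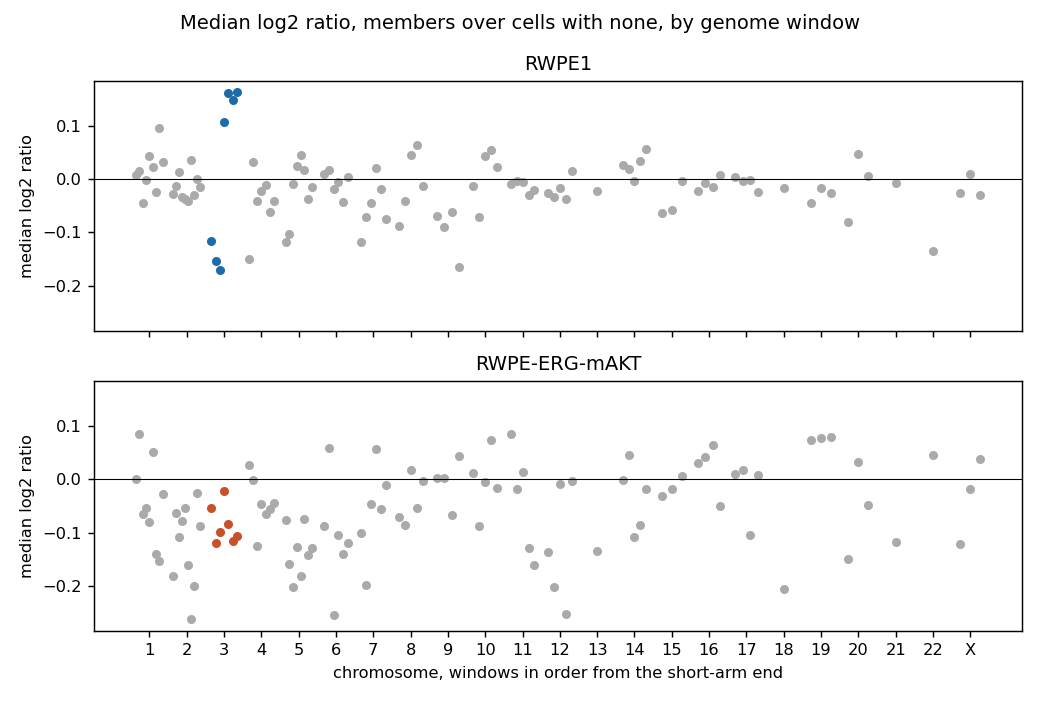
Median log2 ratio of members over cells with none of the 4 genes in 25 Mb windows (points), by chromosome, in RWPE1 (top) and RWPE-ERG-mAKT (bottom), chromosome 3 in colour. In RWPE1 the windows of chromosome 3 span -0.17 to 0.16 and lie at both ends of the range. The window of chromosome 9 from 125 to 150 Mb is nearly as low, at -0.16.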

How the data were processed

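The authors made droplet libraries with 10x Genomics chemistry for transcript 3' ends and, per the submitters' processing notes, counted UMIs with Cell Ranger 7.1.0 on hg38. The deposited matrices hold raw UMI counts for 36601 genes per barcode, not normalized, with 1 library per line, so p-values between lines were not computed. Cells with over 2500 genes and under 7.5% mitochondrial UMIs were kept. UMIs were summed over member cells and over cells with none of the 4 genes, scaled to CPM, and given with exact Poisson and binomial intervals (Python 3.11.15, scipy 1.17.1). The members and the 27 gene lists (423 symbols, 2 of them not in the tables) were chosen with earlier results of these data known. Named genes were the rule genes, the kallikreins, TCN2, ERG and AKT1, the 15 highest and 15 lowest genes in both libraries by the smaller ratio, up to 4 per list and 8 with opposite sides, at 20 CPM or more; some are not reported here. Genes named outside that rule were chosen after their values were seen. Positions came from GENCODE 29, in which 94.6% of gene IDs were found. The comparison was tested on simulated data. Thinning, filters, added CPM and scaling were varied.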

Additional observations from a re-analysis of the deposited data

Results flagged for a closer look

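The following values of kallikrein-positive cells lay on opposite sides of 0 in the 2 lines, as log2 ratios of members over cells with none of the 4 genes. The differences between the lines were not tested, since each line has 1 library. Kallikrein inhibitors, partners and substrates had a median of -0.02 in RWPE1 and 1.5 in RWPE-ERG-mAKT, a difference of 1.52. Genes of G2/M phase had a median of 0.29 in RWPE1 and -0.93 in RWPE-ERG-mAKT, a difference of -1.22. In cells set aside by the envelope limit the G2/M medians were -0.46 and -1.20, both below 0.

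Among single genes, RWPE-ERG-mAKT minus RWPE1 was 5.03 for KRT13, 2.89 for UCA1, 2.72 for KRT19 and 2.60 for IFIT2. It was 2.39 for LINC00707 and 2.35 for LINP1. It was -2.15 for FABP5 and -2.09 for FARP1. These 8 genes kept both directions in 232 of 232 alternative values, which was largely set by picking them for opposite ratios in the same libraries.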

How the results depend on the processing

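Direction and call held for most results, 263 of the 330 alternative values of summaries staying within their counting interval, and 67 moving. No paired analysis was possible because each condition has 1 library. The shares of members, 6.73% (RWPE1) and 0.347% (RWPE-ERG-mAKT), became 5.80% and 0.198% with a limit of 0 envelope UMIs, 7.80% and 0.594% with no envelope limit, and 1.93% and 0.0141% with 3 or more genes, with folds of 29.3, 13.1 and 136. With a limit of 10 envelope UMIs RWPE-ERG-mAKT rose to 0.516% (fold 13.95), and without the mitochondrial limit RWPE1 rose to 7.30%. After thinning to 5000 and 12000 UMIs RWPE1 stood at 1.98% and 4.94%. With a second random split, KLK8 in the unread part reached 72.7 CPM (RWPE1) and 106 CPM (RWPE-ERG-mAKT).

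Genes higher and lower numbered 58 and 94 (RWPE1), and 244 and 237 (RWPE-ERG-mAKT), with at least 50 CPM, and 530 and 614, and 2816 and 3244, with no minimum CPM, because other numbers of genes enter. With 3 or more genes, 456 genes were lower in RWPE1. At 3 or more genes RWPE-ERG-mAKT has 2 members and gives no gene values.

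Of list medians in RWPE1, other kallikreins, 1 measured gene, moved from 3.31 to 4.43 and 1.82 with 0.1 and 5 CPM added, 0.27 with no minimum CPM and 3.87 with 3 or more genes. Luminal progenitor and club genes, at 0.35, were at 0.48 with the mean over scaled cells, 0.10 with at least 50 CPM, 0.045 with no minimum, 0.0072 with a limit of 0 envelope UMIs and 0.15 with 3 or more genes. Hillock genes, at 2.0, were at 2.27 with comparison cells weighted for depth, 1.57 with scaled cells, 2.19 and 1.52 with 0.1 and 5 CPM added, 2.19 with at least 50 CPM, 1.09 with no minimum, 1.55 with 0 envelope UMIs, 2.28 with 3 or more genes, 1.70 without the deepest 5% of cells and 2.24 with comparison cells under the envelope limit. Squamous genes, at 0.31, were at -0.050 with at least 50 CPM, 0.58 with 3 or more genes and 0.54 without the deepest cells. Mesenchymal genes, at -0.62, were at -0.88 with scaled cells, -1.73 with at least 50 CPM and -0.056 with no minimum. G2/M genes, at 0.29, were at 0.14 with depth weights, 0.37 with scaled cells and 0.42 with 3 or more genes.

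In RWPE-ERG-mAKT, other kallikreins, 2 measured genes, at 6.5, were at 8.38 and 4.48 with 0.1 and 5 CPM added, 1.10 with no minimum, 7.18 with 0 envelope UMIs and 5.39 without the 5 members with most UMIs of the 4 genes. Luminal progenitor and club genes, at 2.03, were at 0.66 with no minimum. Hillock genes, at 1.97, were at 2.31 with scaled cells, 3.16 with at least 50 CPM, 1.30 with no minimum, 2.69 with 0 envelope UMIs, 3.42 without the deepest cells, 2.91 without the mitochondrial limit and 2.48 with comparison cells under the envelope limit. Mesenchymal genes, at -0.86, were at -1.67 with at least 50 CPM. The immune list, 1 measured gene, turned from 0.60 to -0.21 with 0 envelope UMIs, on fewer members. For the other moves the cause was not tested. The comparison cells under the envelope limit, the members without the 5 highest, and cells without shared barcodes were chosen after seeing the data. The 49 RWPE-ERG-mAKT members have 866053 UMIs, so a level under 3.46 CPM is fewer than 3 UMIs there.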
